A study of Homo sapiens with 6 samples.

Results

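VEGFA, PDGFB, ANGPTL4, FLT1, NRP2, EDNRB and CD34 are genes of secreted vascular factors and of vascular or pericyte surface proteins. They are 7 of the 452 genes in a deposited comparison of LX2 cells given GDF15 with untreated LX2 cells. VEGFA, PDGFB and ANGPTL4 encode the 3 secreted ligands, and FLT1, NRP2, EDNRB and CD34 the 4 surface proteins. The members were selected on measured values of this same comparison: the table holds only rows with an unadjusted p under 0.05, and the 7 genes were picked from it by name. Differences between the groups are therefore described here and not tested.

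Blood vessels grow and mature through ligands that act on endothelial cells and on the mural cells around them. VEGFA drives endothelial growth through the tyrosine kinase receptors KDR and FLT1, with neuropilins such as NRP2 as co-receptors. PDGFB recruits pericytes, and hepatic stellate cells, the pericytes of the liver sinusoid, divide in response to it and contract in response to endothelin, the ligand of EDNRB. ANGPTL4 is a secreted inhibitor of lipoprotein lipase that also acts on vessels, and CD34 is a sialomucin best known from endothelial and blood progenitor cells.

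LX2 cells are an immortalised line of human hepatic stellate cells. The 3 GDF15 libraries came from LX2 cells given recombinant GDF15 protein, a stress-induced cytokine, at 1 ug/ml for 24 h, and the 3 untreated libraries from LX2 cells without it. Nothing in the labels tells if a group's libraries were separate cultures, so the SDs below may be technical. The label for cell type reads epithelial, while the design text names hepatic stellate cells. Of 16 endothelial markers only CD34 has a row, and 0 of 16 pericyte and stellate markers and 0 of 12 epithelial and hepatocyte markers have one, so neither label could be checked against markers here.

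Normalized counts, the values the authors deposited for each library, summed over the table to 470046 in GDF15 replicate 1 and to between 279332 and 326126 in the other 5 libraries. GDF15 replicate 1 thus stands apart, and it held the highest value of 180 of the 274 rows that are higher with GDF15, or 65.7%. All 7 members were among the genes highest in that library. The main results below are given with and without it. Since the table lists few genes of each library, total depth is unknown and no counting interval is given.

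All 7 members were higher with GDF15 by the group means, against 60.5% of all 453 rows listed as higher. The groups did not overlap for 3 of the 7, PDGFB, EDNRB and CD34. Of all 453 rows, 169 (37.3%) were higher with GDF15 without overlap, all of them among the 274 higher rows. A fold of at least 2 in the authors' deposited table was listed for EDNRB, ANGPTL4 and FLT1. It was listed for 63 of all 453 rows (13.9%) in that direction, again all among the 274 higher rows. Of the 7 members 0, and of all rows 0%, had in the authors' deposited table an adjusted p under 0.05, the adjusted p being 0.911 throughout. Nothing is read from these counts, because the rows and the members were chosen by the same contrast. The median log2 fold change in the authors' deposited table was 0.80 over the members, 0.47 over all rows and 0.70 over the higher rows. As the RNA is bulk RNA, more cells making a transcript and more transcript per cell cannot be told apart.

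The unadjusted p-values that let the members into the authors' deposited table ran from 0.00134 for EDNRB through 0.0135 for PDGFB, 0.0173 for FLT1, 0.0178 for ANGPTL4 and 0.0194 for VEGFA. CD34 at 0.0465 and NRP2 at 0.0479 lay just inside the threshold, the largest p of that authors' deposited table being 0.04996. Genes outside it were not analysed here.

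**Figure D1:**
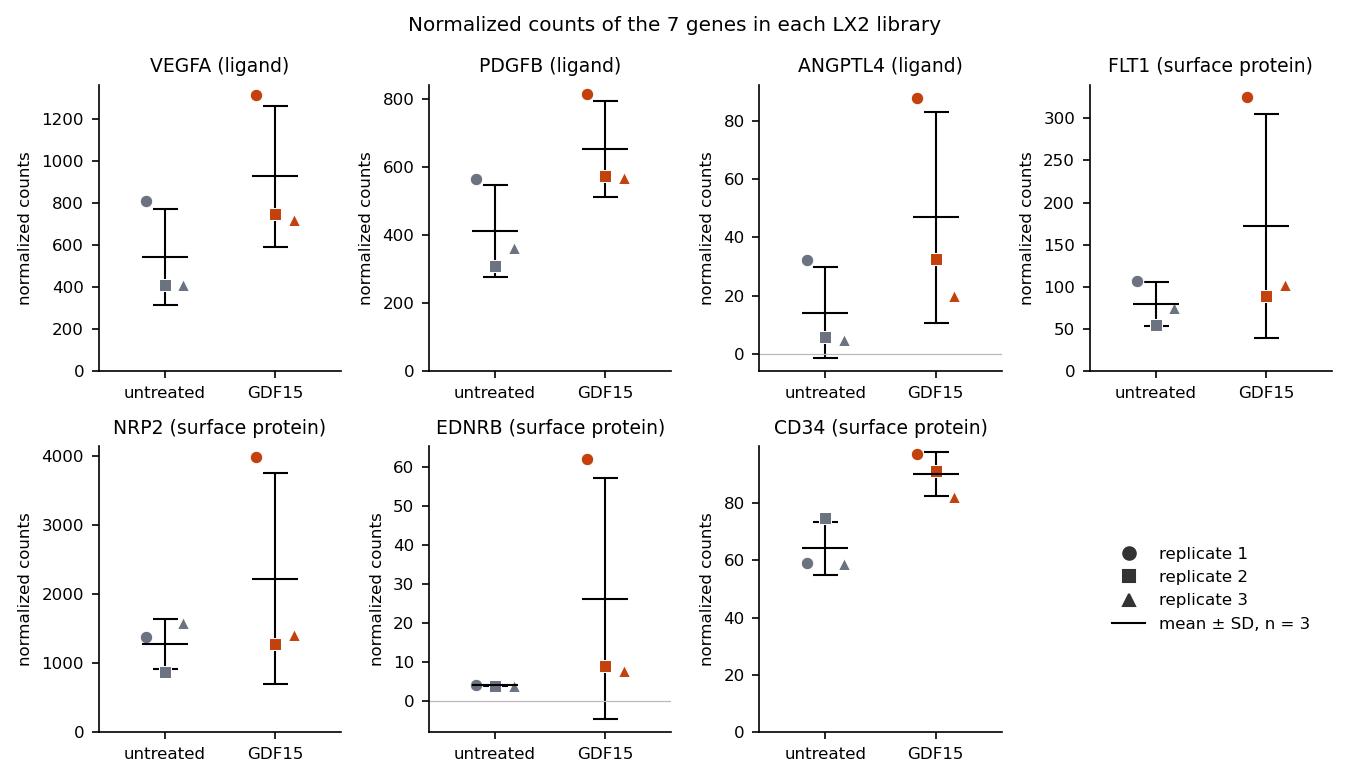
Normalized counts (y axis, linear) of each gene in the 3 untreated (grey) and 3 GDF15 (orange) LX2 libraries, with symbols for replicates 1, 2 and 3 and black bars for mean ± SD, n = 3. GDF15 replicate 1 (orange circle) is the highest of 6 libraries for all 7 genes, and for EDNRB its value there is 62.1, compared with 8.99 and 7.76 for GDF15 replicates 2 and 3.

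The sequence just before the transcription start was compared across members as a description. That they were higher together can reflect how they were chosen, and shared regulation was not tested. RefSeq promoter sequence on GRCh38.p14 was matched for 5 of the 7 genes, in 6 windows of 250 bases, EDNRB having a pair of starts. No window was available for the ligand genes VEGFA and PDGFB, so their promoters were not searched. Hypoxia-inducible factors (HIF), the oxygen-sensing activators for which VEGFA and ANGPTL4 are textbook targets, bind a core of ACGTG or GCGTG, searched here on both strands. A match was found in 4 of the 6 windows, those of ANGPTL4, FLT1 and both EDNRB starts, and in 43.2% of all 35116 windows of that length. The GC content was 68.8% for ANGPTL4, 73.2% for FLT1 and 50% and 58.4% for the EDNRB starts. It was 70% for NRP2 and 61.6% for CD34, both without a match, and 58% at the median of all windows. The share of all windows is not matched for GC content. TATAAA, the TATA box core, lay at -29 for ANGPTL4 and -31 for FLT1, counted from the start, and in 10.7% of all windows on either strand. Stretches of these windows free of annotated UTRs are shown for the 4 windows with a match and for NRP2, which had neither. Capitals mark ACGTG or GCGTG, or their reverse complements CACGT and CACGC, and TATAAA, with overlapping matches running together.
ANGPTL4, plus strand, chr19:8363905-8364150: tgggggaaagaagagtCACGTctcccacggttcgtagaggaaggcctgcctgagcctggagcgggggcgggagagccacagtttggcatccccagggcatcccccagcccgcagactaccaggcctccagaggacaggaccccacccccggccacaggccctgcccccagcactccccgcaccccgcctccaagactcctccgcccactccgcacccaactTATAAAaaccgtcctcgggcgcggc
FLT1, minus strand, chr13:28495146-28495378: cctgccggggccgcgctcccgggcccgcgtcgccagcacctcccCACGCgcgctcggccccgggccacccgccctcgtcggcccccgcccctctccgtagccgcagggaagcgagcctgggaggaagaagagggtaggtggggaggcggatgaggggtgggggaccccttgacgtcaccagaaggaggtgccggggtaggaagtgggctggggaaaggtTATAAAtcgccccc
EDNRB, first start, minus strand, chr13:77919769-77919932: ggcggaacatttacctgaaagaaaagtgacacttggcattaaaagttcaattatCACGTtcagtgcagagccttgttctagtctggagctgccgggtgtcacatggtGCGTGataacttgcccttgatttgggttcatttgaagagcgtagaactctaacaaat
EDNRB, second start, minus strand, chr13:77918832-77919006: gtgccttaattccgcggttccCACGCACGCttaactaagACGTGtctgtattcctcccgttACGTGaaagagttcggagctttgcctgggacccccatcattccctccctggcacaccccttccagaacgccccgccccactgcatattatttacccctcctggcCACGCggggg
NRP2, plus strand, chr2:205682251-205682499: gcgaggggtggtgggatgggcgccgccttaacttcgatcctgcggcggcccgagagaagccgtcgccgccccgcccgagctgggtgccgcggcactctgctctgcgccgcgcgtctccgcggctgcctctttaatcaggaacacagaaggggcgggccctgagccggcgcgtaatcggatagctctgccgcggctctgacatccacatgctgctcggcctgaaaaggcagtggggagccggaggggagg

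The second EDNRB window held 5 matches to the HIF core, the first held 2, and ANGPTL4 and FLT1 held 1 each. In the CD34 window neither motif occurred. A match is a description of the letters, and binding was not measured. By gene, 3 of the 5 matched genes held the HIF core.

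VEGFA, the main endothelial growth factor gene (ENSG00000112715, GRCh38 chromosome 6, 43770184 to 43786487, plus strand), had 1315, 748 and 719 normalized counts in GDF15 replicates 1, 2 and 3. Untreated replicates 1, 2 and 3 had 809, 408 and 410.2. Within each group replicate 1 was the high library, and untreated replicate 1 lay above GDF15 replicates 2 and 3, so the groups overlapped. The means were 927 ± 336 and 542 ± 231 normalized counts (SD, n = 3), a 1.71-fold difference, or 1.35-fold without GDF15 replicate 1.

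PDGFB, the mitogen gene for pericytes and stellate cells (ENSG00000100311, chromosome 22, 39223359 to 39244751, minus strand), had 816, 574 and 567 normalized counts in the GDF15 replicates and 566, 309.9 and 362 in the untreated ones. Its groups did not overlap, but by a margin of only 1.38 normalized counts between GDF15 replicate 3 and untreated replicate 1. The means were 653 ± 142 and 413 ± 135 (SD, n = 3), a 1.58-fold difference, or 1.38-fold without GDF15 replicate 1. With the libraries rescaled to equal sums over the table the PDGFB groups overlapped. These sums cover only rows selected on this contrast, so the rescaling itself can remove part of the group difference.

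ANGPTL4, the lipase inhibitor gene (ENSG00000167772, chromosome 19, 8363289 to 8374373, plus strand), had 87.9, 32.6 and 19.95 normalized counts in the GDF15 replicates against 32.1, 5.69 and 4.75 in the untreated ones. Untreated replicate 1 was 6.16 times the mean of the other untreated libraries and lay between GDF15 replicates 2 and 3. The means were 46.8 ± 36.2 and 14.2 ± 15.6 (SD, n = 3), a 3.30-fold difference. That fold was 1.85 without GDF15 replicate 1, and the log2 ratio of means went from 1.72 to 3.17 without untreated replicate 1. The untreated SD exceeded the untreated mean.

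The ligands thus had a common order of libraries: replicate 1 was highest in the GDF15 group and in the untreated group for all 3. It was not particular to ligands, since FLT1 and EDNRB also had replicate 1 highest in both groups. Untreated replicate 1 was the highest untreated library for 181 of the 274 rows higher with GDF15, or 66.1%, so this order is common in the table. Its value over the mean of the other untreated libraries was 1.98 for VEGFA, 1.69 for PDGFB and 6.16 for ANGPTL4, where the 274 higher rows had a median of 1.23 and an upper quartile of 1.51.

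FLT1, the gene of VEGF receptor 1 (ENSG00000102755, chromosome 13, 28300344 to 28495145, minus strand), had 326, 88.8 and 102 normalized counts in the GDF15 replicates and 107, 55.0 and 75.2 in the untreated ones. Only GDF15 replicate 1 lay above all untreated libraries. The means were 172 ± 133 and 79.0 ± 26.1 (SD, n = 3), a 2.18-fold difference that was 1.21-fold without that library. Gene-level values do not separate the membrane receptor from its soluble form.

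NRP2, a co-receptor gene for VEGF family ligands and class 3 semaphorins (ENSG00000118257, chromosome 2, 205681990 to 205798133, plus strand), had 3976, 1281 and 1411 normalized counts in the GDF15 replicates. The untreated replicates had 1375, 873 and 1578, so untreated replicate 3 exceeded both GDF15 replicates 2 and 3. The means were 2223 ± 1520 and 1275 ± 363 (SD, n = 3), a 1.74-fold difference, or 1.06-fold without GDF15 replicate 1. With untreated replicate 2 left out as well, which was tried after the values were seen, the log2 ratio of means was -0.13, so the direction of NRP2 turned.

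EDNRB, the endothelin receptor type B gene (ENSG00000136160, chromosome 13, 77895481 to 77975529, minus strand), had 62.1, 8.99 and 7.76 normalized counts in the GDF15 replicates and 4.15, 3.79 and 3.96 in the untreated ones. The groups did not overlap, and the lowest GDF15 library was 3.61 normalized counts above the highest untreated one. The means were 26.3 ± 31.0 and 3.97 ± 0.179 (SD, n = 3), a 6.62-fold difference. Of the 7 members, 6 had a mean of at least 20 normalized counts over the 6 libraries, and EDNRB did not. At such low values counting error may be large, and the small untreated SD does not measure it. Without GDF15 replicate 1, which was 7.41 times the mean of the other GDF15 libraries, the fold was 2.11. As a difference of mean log2(normalized count + 5), which damps low values, EDNRB was 1.35 higher, where the log2 ratio of means was 2.73.

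CD34, the sialomucin gene (ENSG00000174059, chromosome 1, 207880972 to 207911402, minus strand), had 97.2, 91.0 and 82.0 normalized counts in the GDF15 replicates and 59.1, 74.9 and 58.6 in the untreated ones. The groups did not overlap, and GDF15 replicate 1 was 1.12 times the mean of the other GDF15 libraries, the smallest such ratio among the 7 genes. The means were 90.1 ± 7.65 and 64.2 ± 9.25 (SD, n = 3), a 1.40-fold difference, or 1.35-fold without GDF15 replicate 1. Under the same rescaling the log2 ratio of means went from 0.49 to 0.21 and the CD34 groups overlapped.

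**Figure D2:**
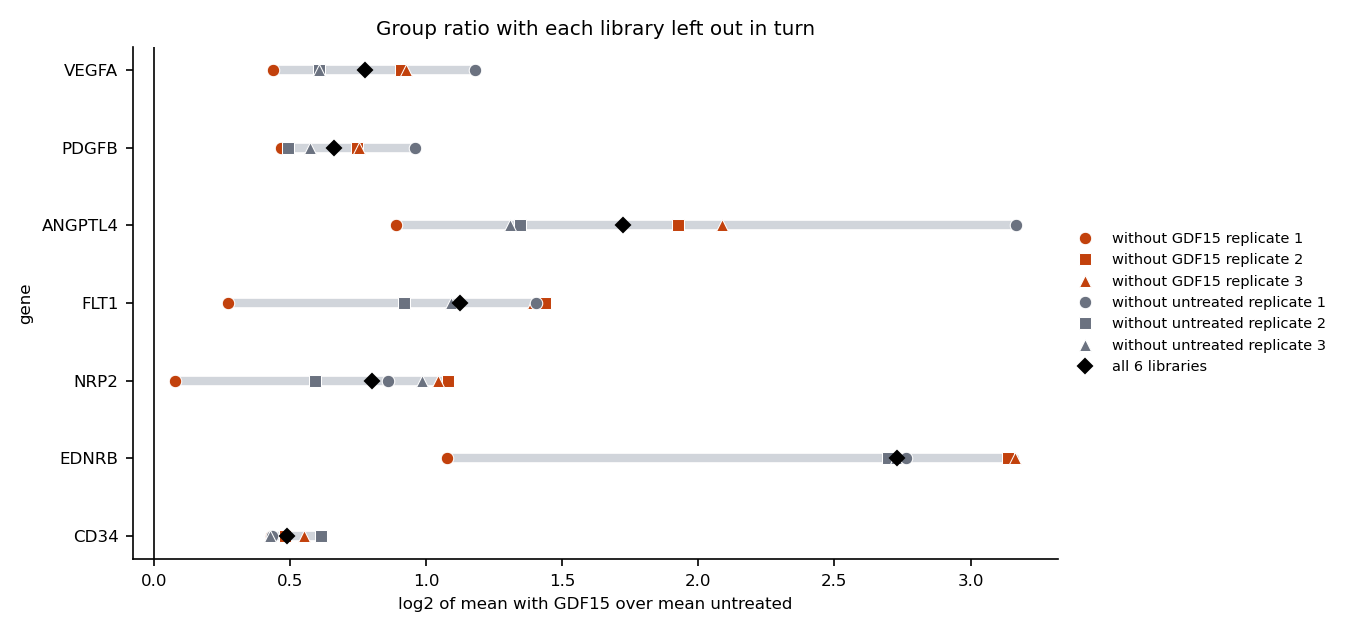
Log2 ratio of group means (x axis, GDF15 over untreated) of each gene (y axis) with all 6 libraries (black diamond) and with 1 library left out (orange, a GDF15 library; grey, an untreated library), grey bars spanning the range. Without GDF15 replicate 1, FLT1, NRP2, EDNRB and the ligand ANGPTL4 move down to 0.27, 0.08, 1.08 and 0.89, while CD34 stays between 0.43 and 0.61.

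Ligands and surface proteins did not differ in the size of their group ratios beyond the spread between libraries. The median log2 ratio of means was 0.77 for the 3 ligands and 0.96 for the 4 surface proteins, a difference of -0.19. The per-library difference between the median of the ligands and that of the surface proteins, each gene taken on the log2 scale relative to its untreated mean, was -0.53, 0.18 and 0.12 in GDF15 replicates 1, 2 and 3. In untreated replicates 1, 2 and 3 it was 0.55, -0.11 and -0.31, so the groups overlapped. Without GDF15 replicate 1 the medians were 0.47 for ligands and 0.35 for surface proteins, and the sign of their difference turned. Ratios of ligand to receptor told the same: VEGFA over FLT1 was 4.03, 8.43 and 7.05 in the GDF15 replicates and 7.57, 7.43 and 5.45 in the untreated ones, with GDF15 replicate 1 lowest of all. VEGFA over NRP2 was 0.331, 0.584 and 0.510 against 0.588, 0.468 and 0.260, also with overlap.

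Single libraries weighed unequally on the genes, and the classes overlapped in this too. GDF15 replicate 1 over the mean of the other GDF15 libraries was 3.42 for FLT1, 2.95 for NRP2, 7.41 for EDNRB and 1.12 for CD34, and 1.79 for VEGFA, 1.43 for PDGFB and 3.35 for ANGPTL4. The median of the 274 higher rows was 1.31, with an upper quartile of 1.93. The same ratio for untreated replicate 1 was at least 1.69 for the ligands, and FLT1 at 1.64 lay next to PDGFB, whereas EDNRB at 1.07, NRP2 at 1.12 and CD34 at 0.886 were nearer to 1 or below it.

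Deviations of log2(normalized count + 1) from the mean of a library's own group leave out the difference between the groups. Over the 6 libraries, with 4 free deviations, Pearson r was 0.97 between VEGFA and PDGFB, 0.98 between VEGFA and ANGPTL4 and 0.95 between PDGFB and ANGPTL4. It was 0.95 between FLT1 and NRP2, 0.91 between FLT1 and EDNRB and 0.90 between NRP2 and EDNRB. CD34 had r between -0.24 and 0.41 with the other 6 genes over 6 libraries. These are descriptions over the same few libraries, in which a library-wide shift would move all genes together.

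Without GDF15 replicate 1 the ligands kept an r of 0.97, 0.98 and 0.92 for the same pairs over 5 libraries. Among those 5 libraries untreated replicate 1 deviated most for each ligand, by 0.65 for VEGFA, 0.50 for PDGFB and 1.61 for ANGPTL4. An r without untreated replicate 1 was not computed, so the ligand r may rest on that library. Without GDF15 replicate 1 the receptor pairs went to 0.72 for FLT1 with NRP2, 0.29 for FLT1 with EDNRB and 0.21 for NRP2 with EDNRB. The likeness of EDNRB to FLT1 and NRP2 thus rests on GDF15 replicate 1, while that of FLT1 to NRP2 fell less. FLT1 had r of 0.87 with VEGFA, 0.84 with PDGFB and 0.78 with ANGPTL4 over 6 libraries, and 0.85, 0.95 and 0.75 without that library. With so few libraries, 0.75 with ANGPTL4 and 0.72 with NRP2 are too close to rank. CD34 had r of -0.96 with NRP2, -0.83 with FLT1 and -0.63 with PDGFB over the 5 libraries. Its r near 0 with NRP2 and FLT1 over 6 libraries thus also rests on GDF15 replicate 1. With PDGFB the r of CD34 was already -0.24 over 6 libraries.

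**Figure D3:**
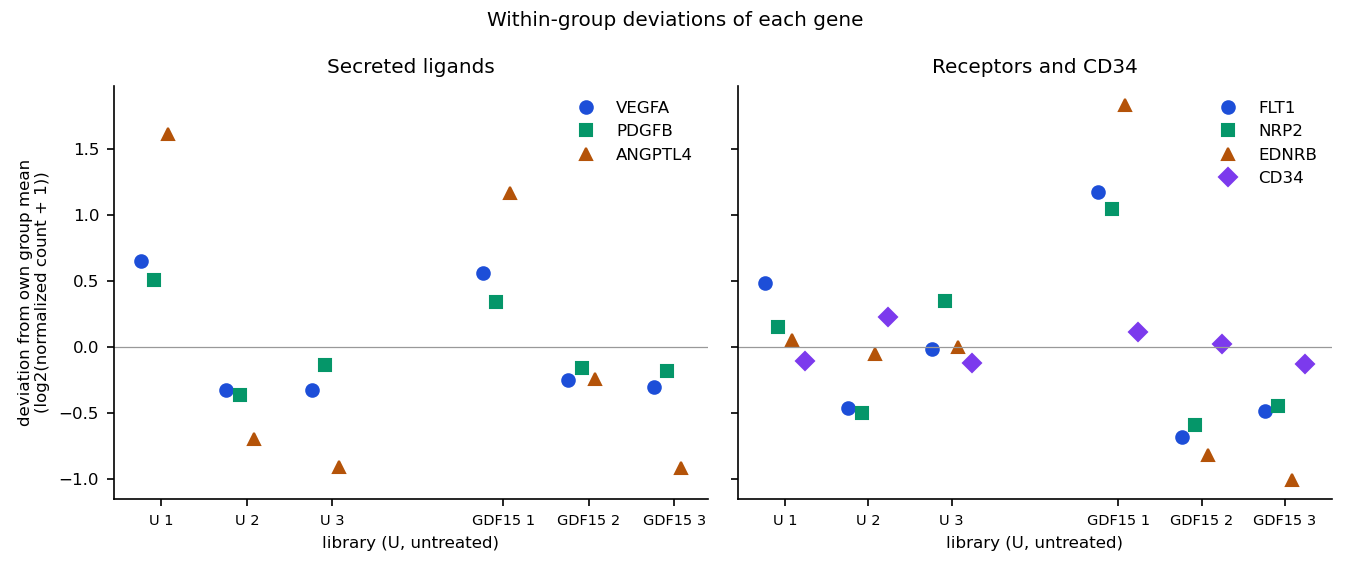
Deviation of each gene from the mean of its own group (y axis, log2(normalized count + 1)) in each library (x axis; U, untreated), ligands on the left, receptors and CD34 on the right. All 3 ligands and FLT1 lie clearly above 0 in replicate 1 of both groups, at 0.34 or more, while FLT1, NRP2 and EDNRB reach 1.18, 1.04 and 1.84 in GDF15 replicate 1 and CD34 stays within 0.23 of its group means.

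**Figure D4:**
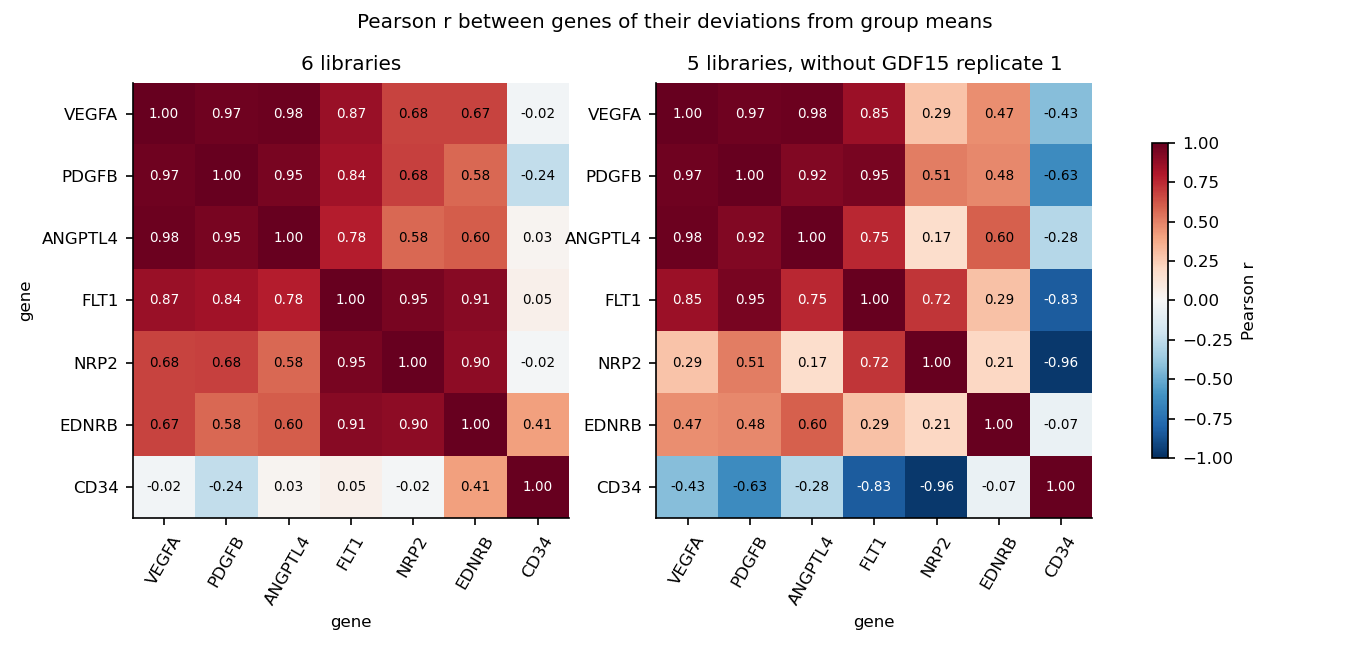
Pearson r between each pair of genes (both axes) of their within-group deviations over 6 libraries (left) and over 5 libraries without GDF15 replicate 1 (right), from -1 in blue to 1 in red. The ligand block stays at 0.92 or more in both panels, and the receptor block of FLT1, NRP2 and EDNRB falls from at least 0.90 to between 0.21 and 0.72, while CD34 with NRP2 goes from -0.02 to -0.96.

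The rows nearest to each member in these deviations were named by rank of r. Among rows with a gene name and a mean of at least 20 normalized counts, VEGFA was closest to PFKFB4, which sets the level of an activator of glycolysis (r = 0.997), and to the transcription factor gene MAFF (0.987). PDGFB was closest to the lactate exporter gene SLC16A3 (0.989) and to PFKFB3 (0.987), a paralog of PFKFB4. ANGPTL4 was closest to the mTORC1 inhibitor gene DDIT4 (0.998) and to PFKFB4 (0.994). FLT1 was closest to DRAM1, an autophagy gene (0.996), and to the TNF receptor gene TNFRSF1A (0.996). NRP2 was closest to the mucin gene MUC1 (0.998) and the anchoring protein gene AKAP6 (0.996), and EDNRB to the interferon regulatory factor gene IRF7 (0.997) and to AC116366.1 (0.992). CD34 was closest to MDFIC (0.992) and to HMGB1P5 (0.989), the latter a pseudogene whose reads may belong to related copies.

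With few free deviations a high r is common: between 19 rows for CD34 and 72 for FLT1 had r over 0.9, of 416 compared for each. For EDNRB the likeness to IRF7 was 0.80 and that to AC116366.1 was 0.47 without GDF15 replicate 1. For the other 6 genes both neighbours kept an r of at least 0.977 without it.

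HIF target genes outside angiogenesis were taken as a further list. Of 28, 11 have a row, all higher with GDF15, where 60.5% of all rows are, with log2 fold changes from 0.56 to 0.94 and a median of 0.72 in the authors' deposited table. Groups did not overlap for 2 of the 11, or 18.2%. Of all 453 rows 169, or 37.3%, did not overlap in that direction, all of them among the 274 higher rows. The log2 ratios of means of the 11 without GDF15 replicate 1 ran from 0.18 to 0.76 with a median of 0.45, where with all libraries they ran from 0.56 to 0.94 with a median of 0.72. The median r of within-group deviations with these 11 genes was 0.93 for VEGFA, 0.96 for PDGFB and 0.92 for ANGPTL4. It was 0.76 for FLT1, 0.65 for NRP2, 0.51 for EDNRB and -0.12 for CD34. With all compared rows the median r was between 0.12 and 0.27 for the 7 genes. Those rows include rows lower with GDF15, whereas all 11 HIF target genes are higher rows, so the comparison is not like with like. A median over the higher rows alone was not computed. Without GDF15 replicate 1 the median r with the 11 genes was 0.93, 0.95 and 0.94 for VEGFA, PDGFB and ANGPTL4. For FLT1, NRP2, EDNRB and CD34 it was then 0.82, 0.41, 0.57 and -0.38. This measure was chosen after the values were seen. Untreated replicate 1 was the highest untreated library for each ligand and for all of the 11 HIF target genes but CA12. A median r without untreated replicate 1 was not computed, so the r of the ligands with these genes may rest on that library.

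Other genes of the same pathways were largely outside the table. Of 81 genes in 10 lists of VEGF, PDGF, angiopoietin, angiopoietin-like, endothelin, FGF, Notch, ephrin and semaphorin signalling and of angiogenesis inhibitors, 7 have a row, 6 of the members and PDGFRA. For 5 of the 10 lists, among them the angiopoietins with their TIE receptors, the semaphorins with plexins and the angiogenesis inhibitors, there is no row. PDGFRA, a receptor gene for PDGF ligands, had 50.7, 24.7 and 28.8 normalized counts in the GDF15 replicates and 13.5, 19.9 and 12.7 in the untreated ones. Its means were 34.7 ± 13.96 and 15.3 ± 3.96 (SD, n = 3), a 2.26-fold difference with no overlap, or 1.74-fold and still without overlap when GDF15 replicate 1 was left out. PDGFB and PDGFRA, a ligand and a receptor of one system, were thus both listed as higher, each highest in GDF15 replicate 1.

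Per kilobase of exon, the untreated level was 110 ± 36.0 normalized counts for PDGFB and 91.8 ± 26.1 for NRP2, which did not differ beyond their spread, followed by 37.6 ± 16.0 for VEGFA (SD, n = 3). CD34 at 6.96 ± 1.00, FLT1 at 6.29 ± 2.08 and ANGPTL4 at 5.72 ± 6.27 per kilobase did not differ beyond their spread either. EDNRB was lowest at 0.707 ± 0.0318. With GDF15 the levels per kilobase were 174 ± 37.7 for PDGFB, 160 ± 109 for NRP2, 64.3 ± 23.3 for VEGFA, 18.9 ± 14.6 for ANGPTL4, 13.7 ± 10.6 for FLT1, 9.77 ± 0.830 for CD34 and 4.69 ± 5.53 for EDNRB. The means per kilobase without GDF15 replicate 1 were 152 for PDGFB, 96.9 for NRP2, 50.8 for VEGFA, 10.6 for ANGPTL4, 9.38 for CD34, 7.59 for FLT1 and 1.49 for EDNRB, so FLT1 then stood below CD34 in the order of the means. The exon length is the union of all GENCODE 29 exons, and for VEGFA, with 32 annotated transcripts, it covers 14431 of the 16304 bases of the gene, which lowers its value per kilobase.

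All 7 genes are protein coding and lie on 6 chromosomes, FLT1 and EDNRB both on chromosome 13. For 6 of the 7, FLT1 being the exception, GENCODE 29 has a gene on the opposite strand that overlaps, such as RNF219-AS1 for EDNRB. Without a stated use of strand in counting, reads of the pair cannot be told apart, and 0 of the overlapping genes has a row of its own.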

How the data were processed

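Poly(A) RNA of 6 LX2 libraries was sequenced. The submitters' processing notes name GRCh38, DESeq2, STAR 2.5.2b, Trimmomatic 0.36 and featureCounts (Subread 1.5.2). Not given in the sources used here: annotation, settings and strand. The authors deposited 1 table with their log2 fold changes, their unadjusted and adjusted p-values, and a normalized signal per library, called normalized counts here, whose scaling the file headers do not state. Folds are ratios of group means over 3 libraries, with SDs. Their log2 values differed from the deposited log2 fold changes of the members by at most 0.0201. All 6 library columns were mapped by library name, and 0 columns were left unmapped.

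Limma 3.58.1 in R 4.3.3 was fitted to log2(normalized count + 1) of all 453 rows, and tested on simulated data. As the rows were selected on this contrast, it describes the table, and no p of a member is taken from it. The planned edgeR alternative needs counts and was not run. Positions, exons and overlaps came from GENCODE 29, which held 451 of the rows and all 7 members, and promoters from RefSeq (GRCh38.p14). The members, lists and named genes were chosen with earlier results of these data known. The rule named the 7 members, list genes with a row, and for each member the 2 rows most alike in within-group deviations. Python 3.11.15 with pandas 2.3.3, numpy 2.4.6 and matplotlib 3.10.9 did the rest.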

Additional observations from a re-analysis of the deposited data

How the results depend on the processing

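All 7 members stayed higher with GDF15 under each pseudocount (0.1, 1 and 5), the rescaling, the replicate block and each single library left out, and 6 of 7 when GDF15 replicate 1 and untreated replicate 2 were left out together. There NRP2 turned to -0.13 and the surface protein median went from 0.96 to 0.31. Leaving out replicate 1 of both groups, also chosen after seeing the data, moved the ligand minus surface protein difference from -0.19 to 0.38 and the members without overlap from 3 to 6. Among settings with 1 library left out, the members without overlap ranged from 3 to 6, the latter without untreated replicate 1, where NRP2 alone overlapped. Rescaling the libraries to equal sums lowered the median log2 ratio of all rows from 0.47 to 0.18, a shift of -0.29, and left 1 member, EDNRB, without overlap. The sums cover only the 453 selected rows, of which 274 are higher with GDF15. Part of this fall can therefore come from the rescaling itself, and the loss of separation is not read as a result. Of 91 member ratios under 13 alternatives, 80 lay within the SD between replicates, 10 moved further and 1 reversed. That SD includes GDF15 replicate 1, so it is wide for genes high in that library, and lying within it does not show stability. The fall of ANGPTL4 from 1.72 to 0.89 without that library, for instance, counted as within it.

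Limma gave an unadjusted p under 0.05 to 159 of 453 rows, and to 94 to 192 with a library left out. No row had an adjusted p under 0.05 within the table. The r of deviations between same-numbered libraries was 0.11, 0.22 and -0.05 for replicates 1, 2 and 3. The highest r with another number was 0.08, -0.09 and 0.04, so same-numbered libraries were the more alike for replicates 1 and 2 only. Whether the numbers mark pairs was left undecided, and the main values do not use them. Compared by number, each gene but NRP2 was higher with GDF15 in every same-numbered pair, which was not tested. With the replicate block 229 rows had such a p. Full depth is unknown, so no counting error could be given.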

Other observations

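The table also holds 1 spike-in RNA, ERCC-00157, added to the RNA ahead of library making. Its normalized count was 19.7, 18.0 and 13.3 for GDF15 replicates 1 to 3 and 29.03, 38.9 and 26.9 for the untreated replicates, lower in each GDF15 library than in each untreated one, opposite in direction to all 7 genes. No other spike-in was analysed here, and its part in the values of the 7 genes was not tested.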
